A study of Homo sapiens with 5 samples.

Results

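The 8 genes described here form the core of cellular iron handling: FTH1 and FTL for storage, TFRC and SLC11A2 for uptake, SLC40A1 for export, ACO1 and IREB2 for sensing, and NCOA4 for the release of stored iron. They were picked by gene symbol and function with no threshold on a measured value, although earlier results of these data were known, and all 8 have a row among the 24497 gene rows of the deposited count table. The cells were HEK293, a long-established line from human embryonic kidney, and the assay was a 5′-selective RNA sequencing method in which cDNA synthesis starts at the poly(A) tail from an oligo-dT primer. Batch B holds 3 libraries and batch A holds 2. The labels give both the same line, the same growth medium with fetal calf serum and the same protocol, and they name no treatment and no genetic change, so batch is the only contrast. Each library carried the material of 100 cells, taken from a lysate of 1000 cells, so each is a pool of cells and no value belongs to a single cell.

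Iron is taken up mainly as transferrin bound to the transferrin receptor, is reduced and leaves the endosome through a divalent metal transporter, and is used or stored in ferritin, a shell built of heavy and light subunits. When iron is scarce, the iron regulatory proteins bind hairpins called iron-responsive elements in certain mRNAs. Binding near the 5′ end, as in ferritin mRNA, holds back translation, while binding in the 3′ untranslated region (UTR) of TFRC mRNA protects that mRNA from decay. RNA counts can therefore show the second arm of this control but do not report on the first.

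The hairpins on the RefSeq and GENCODE sequences are shown because they are the elements through which the iron regulatory proteins act on storage and uptake transcripts. A script searched the sense strand for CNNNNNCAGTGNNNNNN, which stands for a bulged C, a stem of 5 bases, the loop CAGTGN and the other side of the stem, and kept a match only where all 5 pairs of the stem were Watson-Crick or G-U pairs. Of the 8 genes, 7 matched the RefSeq table of start-site windows (GRCh38.p14, 250 bases before to 50 bases after the start), and FTH1 did not. The loop is in capitals in each line, 5′ to 3′.
FTL, chr19:48965329-48965358, plus strand, transcribed part of the window: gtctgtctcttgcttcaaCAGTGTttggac
TFRC, chr3:196050978-196051007, minus strand, 3′ UTR: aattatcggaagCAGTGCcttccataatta
TFRC, chr3:196050574-196050603, minus strand, 3′ UTR: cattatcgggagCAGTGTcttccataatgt
TFRC, chr3:196050509-196050538, minus strand, 3′ UTR: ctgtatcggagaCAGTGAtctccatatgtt
TFRC, chr3:196050462-196050491, minus strand, 3′ UTR: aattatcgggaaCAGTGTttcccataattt

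In FTL the loop lay at bases 39 to 44 of the transcript. The hairpin pattern was found in the first 50 transcribed bases of 8 of 35116 RefSeq windows (0.0228%), which belong to 8 genes. One of these was ALAS2, the erythroid enzyme of haem synthesis, which had no row in the count table. The loop letters CAGTGN, with or without the stem, were in 6.36% of windows. NCOA4 had the loop letters there without the hairpin pattern. The TFRC 3′ UTR, 2658 bases long in the longest GENCODE 29 basic transcript on GRCh38, held 4 matches. Of 1128 genes with a 3′ UTR within 10% of that length, 5 held a match (0.443%) and 1, TFRC itself, held at least 4. The same search of the 3′ UTRs of FTL, SLC11A2, SLC40A1, ACO1, IREB2 and NCOA4 returned no match, which says only that these letters with this pairing are not in those 3′ UTRs. An element with another loop or stem, or a 5′ element beyond the first 50 transcribed bases, would be missed by this search. A match is a description of sequence and not evidence of binding.

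Gene counts came to 373687, 575472 and 685181 in batch B libraries 1, 2 and 3, and to 686883 and 803168 in batch A libraries 2 and 3, named by the digits that end the deposited columns. Levels are given as CPM, the count of a gene scaled to the library's total of gene counts, and 3 counts correspond to 4.38 to 8.03 CPM in batch B and 3.74 to 4.37 CPM in batch A. All 6 genes chosen to mark HEK293 cells (NEFM, NEFL, INA, VIM, KRT8 and KRT18) had counts, though INA was at 0 in batch B library 2. Their summed level was 712 to 789 CPM in batch B and 654 to 661 CPM in batch A. Most of it was VIM, at 500 to 549 CPM in batch B and 417 to 440 CPM in batch A. ERCC spike-in RNA, which the labels list for all libraries, had 13, 1 and 19 counts in batch B and 1785 and 2127 in batch A, so the batches differ in recovered spike-in, and its part in the results was not tested. Of markers of cells that handle much iron, the erythroid list had a row for 1 of 7 genes and 2 counts in all. The macrophage and monocyte list had rows for 2 of 5 and 2 counts, and CSF1R was at 0. The hepatocyte list had rows for 2 of 4 and 12 counts, and ALB, albumin, was at 0. The labels do not say whether libraries came from separate cultures, and the spread that p-values rest on may therefore be technical.

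**Figure D1:**
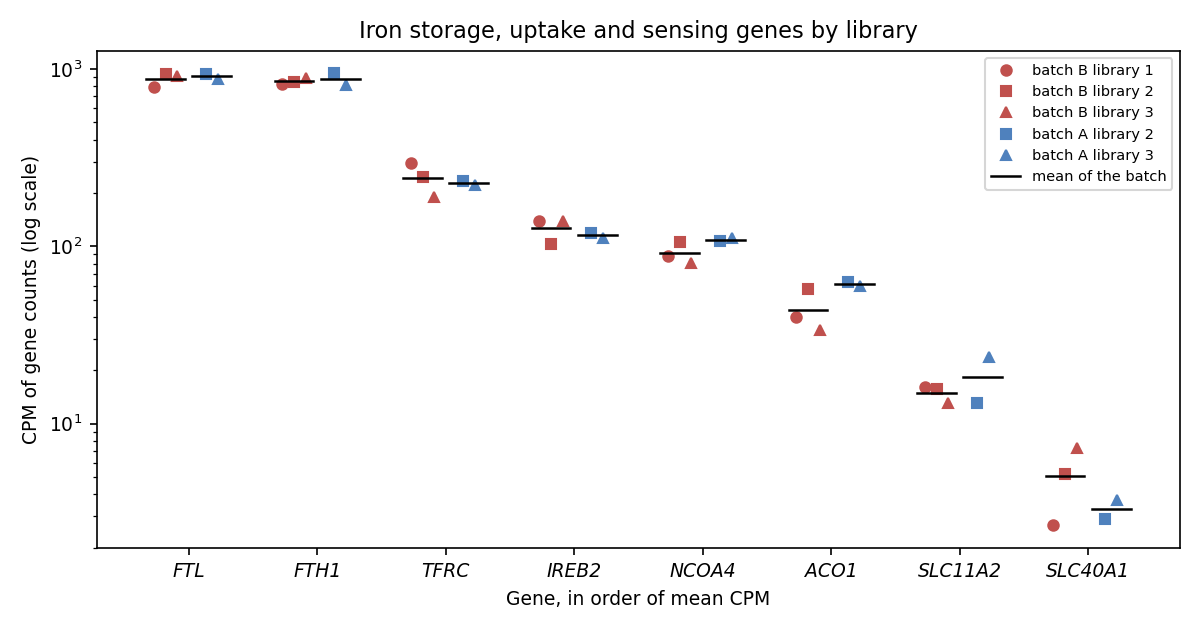
Level of each of the 8 genes in CPM of gene counts (log scale), by library, with batch B in red to the left of batch A in blue and a black line at the mean of each batch. FTL and FTH1 stand near the top in all 5 libraries, TFRC is the next gene, and SLC40A1, at 1 to 5 counts a library, is the lowest.

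Ferritin transcripts were by far the most abundant of the 8 and lay at nearly the same level in both batches. FTH1, the heavy subunit with ferroxidase activity, had 307, 488 and 606 counts in batch B, against 649 and 654 in batch A. This is 822, 848 and 884 CPM in batch B and 945 and 814 CPM in batch A, so that the batch B values lie between the batch A libraries. In pooled cells a lower level in all cells and fewer expressing cells cannot be told apart. FTH1 averaged 851 ± 31.6 CPM in batch B and 880 ± 92.3 CPM in batch A (SD, n = 3 and 2). FTL, the light subunit, which aids the mineral core, had 296, 539 and 624 counts in batch B and 645 and 709 in batch A. Its level was 792, 937 and 911 CPM in batch B and 939 and 883 CPM in batch A, the lowest value being that of batch B library 1, the shallowest. FTL averaged 880 ± 77.1 CPM in batch B and 911 ± 39.8 CPM in batch A.

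By edgeR's quasi-likelihood test over 9215 genes, with Benjamini-Hochberg adjustment, neither ferritin gene passed the threshold of 0.05. The log2 fold change of batch B over batch A was -0.017 for FTH1 (SE 0.11, adjusted p = 0.972) and -0.016 for FTL (SE 0.11, adjusted p = 0.973). The approximate 95% interval, from the standard error and a normal quantile, was 0.85 to 1.15-fold for both. The sign is not settled. With batch A library 2 left out the log2 fold change was 0.12 for FTH1 and 0.054 for FTL, and that of FTL was 0.033 when batch B library 1 was left out.

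The balance of the heavy and light subunit transcripts was close to equal in every library. FTH1 made up 50.9%, 47.5% and 49.3% of FTH1 plus FTL counts in batch B libraries 1, 2 and 3, against 50.2% and 48.0% in batch A libraries 2 and 3. The exact binomial 95% intervals were 46.8 to 55.0%, 44.4 to 50.6% and 46.4 to 52.1% in batch B and 47.4 to 52.9% and 45.3 to 50.7% in batch A, so all 5 overlap and all contain an equal split. They cover counting error only. The mean log2 ratio of FTH1 to FTL was -0.044 ± 0.098 in batch B and -0.054 ± 0.089 in batch A (SD, n = 3 and 2), a difference of 0.0095 (exact two-sided permutation p = 0.9). With 10 ways to split the libraries, 0.1 is the smallest p possible for this and the other 2 ratios tested. Together FTH1 and FTL took 0.161%, 0.178% and 0.180% of gene counts in batch B and 0.188% and 0.170% in batch A.

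Rows of processed ferritin pseudogenes, which are near copies of the mRNAs and may share reads with them, held few counts. There are 16 rows named as FTH1 pseudogenes and 5 named as FTL pseudogenes, of which 3 were at 0 throughout and 20 did not pass the low-count filter. Their sum was 8, 35 and 28 counts in batch B and 18 and 25 in batch A for FTH1, or 2.61%, 7.17% and 4.62% of the FTH1 count in batch B and 2.77% and 3.82% in batch A. For FTL it was 4, 11 and 17 counts in batch B and 17 and 10 in batch A. FTLP3 was the highest row, at 4, 9 and 16 counts in batch B and 16 and 10 in batch A, and its log2 fold change was 0.024 (SE 0.44, edgeR adjusted p = 0.989). FTH1P8 had 3, 14 and 4 counts in batch B and 5 and 2 in batch A, with the highest count in batch B library 2. FTH1P10 had 1, 4 and 3 counts in batch B and 1 and 2 in batch A. With the pseudogene rows added to their parents, the log2 fold change of FTH1 was 0.0073 and remained without a call.

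**Figure D2:**
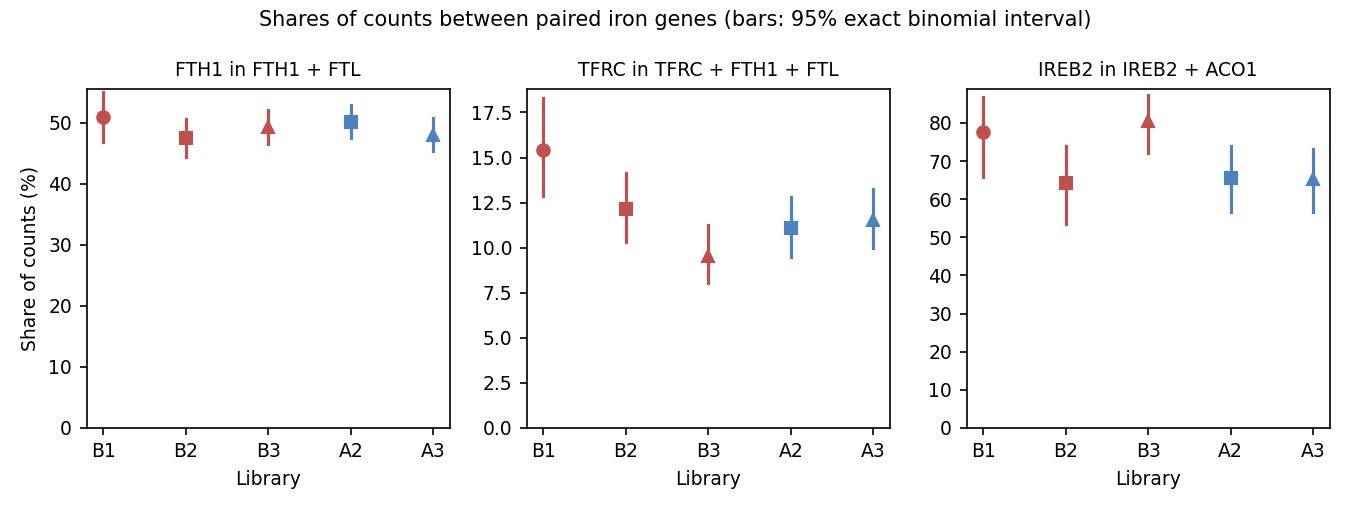
Share of counts, in percent, of FTH1 in FTH1 plus FTL, of TFRC in TFRC plus both ferritins, and of IREB2 in IREB2 plus ACO1, for batch B (B1, B2, B3, red) and batch A (A2, A3, blue) libraries, with bars for the exact binomial 95% interval. The ferritin share stays between 47.5% and 50.9%, while the TFRC share runs from 9.56% to 15.4% within batch B and the IREB2 share from 64.1% to 80.5% within batch B.

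The transferrin receptor gene showed the widest spread between libraries relative to counting noise. TFRC, whose product carries transferrin-bound iron into the cell, had 110, 142 and 130 counts in batch B, against 161 and 178 in batch A. In CPM this is 294, 247 and 190 in batch B and 234 and 222 in batch A, so that batch B holds both the highest and the lowest library. TFRC averaged 244 ± 52.4 CPM in batch B and 228 ± 9.03 CPM in batch A (SD, n = 3 and 2). Its log2 fold change was 0.072 (SE 0.12, edgeR adjusted p = 0.845), with an approximate 95% interval of 0.89 to 1.24-fold. The fit gave genes of similar level a shared spread, so this standard error and interval understate the spread of TFRC. Without batch B library 1 the log2 fold change was -0.062, and without batch B library 3 it was 0.28 (edgeR adjusted p = 0.302).

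Within batch B the TFRC count hardly followed depth. The log2 ratio of counts in library 3 over library 1 was 0.87 for the total of gene counts, 0.98 for FTH1, 1.08 for FTL and 0.24 for TFRC. The within-batch chi-square divided by its degrees of freedom, which is 1 for independent counts that vary by sampling alone, was 4.08 for TFRC. Of 5974 tested genes with at least 100 counts over all libraries, 2.85% had a value at least as high, and their median was 0.98. FTH1 stood at 2.81 and FTL at 2.34, ACO1 at 1.41, IREB2 at 1.36, SLC11A2 at 0.80 and NCOA4 at 0.78. Depth differs along with these TFRC values, and its part in them was not tested.

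TFRC counts were 18.2%, 13.8% and 10.6% of the size of the summed ferritin counts in batch B, against 12.4% and 13.1% in batch A. The mean log2 ratio of TFRC to FTH1 plus FTL was -2.85 ± 0.39 in batch B and -2.97 ± 0.049 in batch A (SD, n = 3 and 2), a difference of 0.12 (exact two-sided permutation p = 0.7). The batches overlap, and without batch B library 1 the difference was -0.077.

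The other transporters were near the lower end of what these libraries can measure. SLC11A2, the divalent metal transporter DMT1, had 6, 9 and 9 counts in batch B and 9 and 19 in batch A. This is 16.1, 15.6 and 13.1 CPM in batch B and 13.1 and 23.7 CPM in batch A, and batch A library 3 stands above the other 4. Its log2 fold change was -0.32 (SE 0.46, edgeR adjusted p = 0.804), with an approximate 95% interval of -1.22 to 0.59 on the log2 scale, and it was 0.17 without batch A library 3. SLC40A1 encodes ferroportin, the known exporter of iron, and had 1, 3 and 5 counts in batch B and 2 and 3 in batch A. Its pooled level was 5.51 CPM in batch B (exact Poisson 95% interval 2.52 to 10.5) and 3.36 CPM in batch A (1.09 to 7.83), and these intervals, which cover counting error only, overlap. SLC40A1 did not pass the low-count filter and was not tested, so whether its level differed between the batches is undecided at these counts.

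Transcripts of both iron regulatory proteins were detected in every library, with IREB2 ahead of ACO1. ACO1, the cytosolic aconitase that becomes iron regulatory protein 1 when it loses its iron-sulfur cluster, had 15, 33 and 23 counts in batch B and 43 and 48 in batch A. In CPM this is 40.1, 57.3 and 33.6 in batch B and 62.6 and 59.8 in batch A, with every batch B library below both batch A libraries. ACO1 averaged 43.7 ± 12.3 CPM in batch B and 61.2 ± 2.01 CPM in batch A (SD, n = 3 and 2). Its log2 fold change of -0.47 (SE 0.25) was the farthest from 0 among the tested members. It did not pass the test, with an edgeR adjusted p = 0.328 (0.0583 before adjustment over all genes). Leaving out batch B library 2 gave -0.74 and leaving out library 3 of that batch gave -0.23, with edgeR adjusted p = 0.188 and 0.781. All batch B libraries lay below all batch A libraries for 17.8% of the tested genes and for 2 of the 7, ACO1 and NCOA4.

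IREB2, iron regulatory protein 2, whose amount is set by its breakdown when iron is plentiful, had 52, 59 and 95 counts in batch B and 82 and 90 in batch A. Its level was 139, 103 and 139 CPM in batch B and 119 and 112 CPM in batch A, and the batches overlap. The log2 fold change was 0.15 (SE 0.16, edgeR adjusted p = 0.717), with an approximate 95% interval of 0.89 to 1.38-fold. IREB2 had 77.6%, 64.1% and 80.5% of the counts of both genes in batch B, against 65.6% and 65.2% in batch A. The mean log2 ratio of IREB2 to ACO1 was 1.54 ± 0.63 in batch B and 0.91 ± 0.017 in batch A (SD, n = 3 and 2). The difference of 0.63 is no larger than the spread of batch B (exact two-sided permutation p = 0.4), and batch B library 2 lay below both batch A libraries. It was 0.98 when batch B library 2 was left out and 0.38 when library 3 of that batch was. Adjusted over the 3 ratios, all 3 permutation p-values were 0.9.

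NCOA4, the receptor that carries ferritin to the lysosome for release of its iron, had 33, 61 and 55 counts in batch B and 74 and 89 in batch A. Its level was 88.3, 106 and 80.3 CPM in batch B and 108 and 111 CPM in batch A, with batch B library 2 just under both batch A libraries. NCOA4 averaged 91.5 ± 13.2 CPM in batch B and 109 ± 2.18 CPM in batch A (SD, n = 3 and 2). Its log2 fold change was -0.24 (SE 0.18, edgeR adjusted p = 0.553), with an approximate 95% interval of 0.67 to 1.08-fold. Leaving out batch B library 2 gave -0.37, and leaving out library 3 of that batch gave -0.098.

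Taking the 8 genes as a list, 7 were tested, 0 were higher and 0 were lower in batch B by edgeR, against 4.2% of all tested genes called (2.15% higher and 2.05% lower). None of the 7 had an unadjusted p under 0.05, against 16.4% of all tested genes. The DESeq2 Wald test, which gave ACO1, SLC11A2 and SLC40A1 no adjusted p, and limma-voom also called 0. The median log2 fold change of the 7 was -0.017, and that of all tested genes was 0.0040. A call missed is not a level shown to be equal. On simulated data the test found 24 of 67 genes changed 1.5-fold and 59 of 67 changed 2-fold. All of them were genes expected to average 20 counts or more, and every simulated gene was given the same spread beyond counting noise. These shares pool genes of many levels, so they are not the share for any single member. They may not carry over to TFRC, which varied more than most genes, or to SLC11A2, which had fewer counts.

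**Figure D3:**
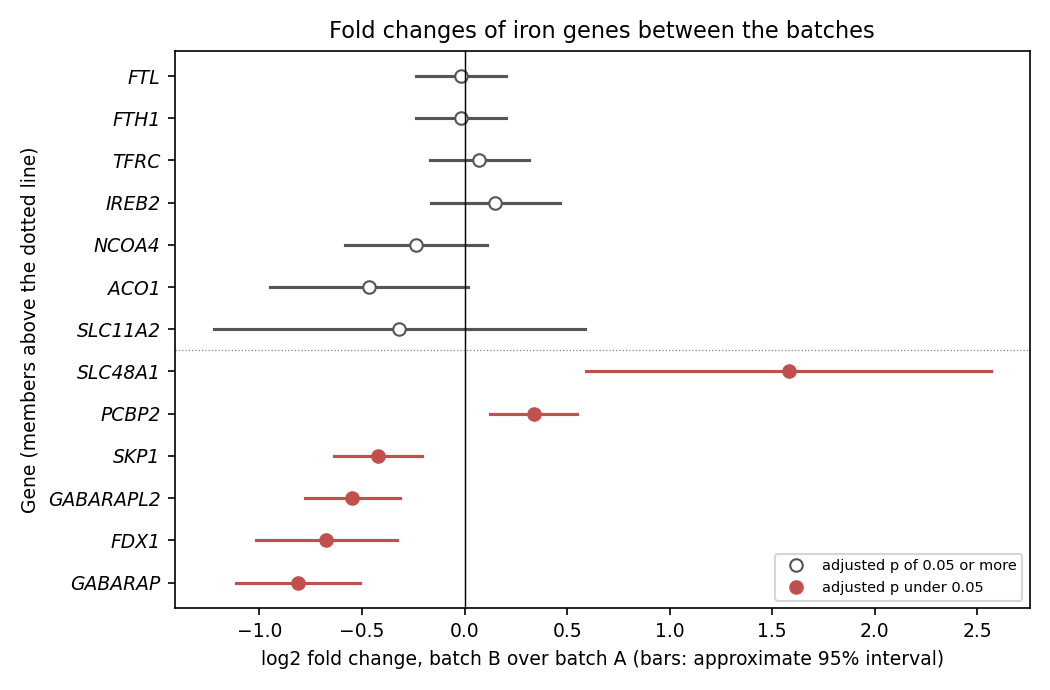
Fitted log2 fold change of batch B over batch A for the 7 tested members (above the dotted line) and the 6 called genes of the other iron lists (below it), with bars for the approximate 95% interval. The bars of all 7 members cross 0, and they widen from FTL and FTH1 to SLC11A2 as counts fall.

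The order of the mean levels was the same in both batches. By mean CPM over the 5 libraries it ran FTL at 892 ± 60.4, FTH1 at 863 ± 53.6, TFRC at 237 ± 38.3, IREB2 at 122 ± 16.2, NCOA4 at 98.6 ± 13.5, ACO1 at 50.7 ± 13.0, SLC11A2 at 16.3 ± 4.33 and SLC40A1 at 4.37 ± 1.92 CPM (SD, n = 5). Neighbours that did not differ beyond their spread were FTL and FTH1, with FTL ahead in counts in 3 of 5 libraries, and IREB2 and NCOA4, with IREB2 ahead in 4 of 5. All other neighbours had ranges that did not overlap. FTL ranked 136th and FTH1 147th of the 20087 genes with a count. These libraries select 5′ ends, so the order used here is that in CPM, and values divided by length are given beside it only. Divided by the length of the longest GENCODE 29 basic transcript, the levels were 1016 ± 68.8 CPM per kb for FTL, 702 ± 43.6 for FTH1, 46.4 ± 7.49 for TFRC, 27.8 ± 3.80 for NCOA4 and 19.3 ± 2.56 for IREB2. On this scale of CPM per kb ACO1 was at 6.79 ± 1.74, SLC11A2 at 3.75 ± 0.995 and SLC40A1 at 1.27 ± 0.557. On that scale NCOA4 came before IREB2, FTL and FTH1 no longer overlapped, and no other place changed. The lengths used were 878 bases for FTL and 1229 bases for FTH1, and in CPM the ranges of FTL and FTH1 overlapped. The gap per kb is therefore not a difference in counts.

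The tested genes most like FTH1, FTL and TFRC in profile were found by Euclidean distance of centred log2(CPM + 1) over the 5 libraries, a likeness that rests on few points and on shared libraries. CEP70 (distance 0.034) and ATG12 (0.044) were nearest to FTH1, where the median distance was 0.61. MAGOH (0.025) and MID1 (0.041) were nearest to FTL, and CBFB (0.10) and YOD1 (0.11) to TFRC, with median distances of 0.60 and 0.77. FTL itself was the 162nd nearest gene to FTH1, at 0.16.

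The wider set of iron genes was taken from 10 lists chosen by function. Of 110 listed genes 101 had a row and 82 were tested, of which 2 rose and 4 fell in batch B by edgeR, and 76 did not pass. The 6 called genes are 7.32% of the 82, against 4.2% of all tested genes, and 18 of the 82 (22%) had an unadjusted p under 0.05, against 16.4% of all tested genes. The median log2 fold change was -0.091 over the 82 genes. All batch B libraries lay below all batch A libraries for 20 of the 82 (24.4%), against 17.8% of all tested genes, and above them for 7 (8.54%), against 13.5% of all tested genes.

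In the list of ferritinophagy and autophagy partners, 2 of 12 tested genes fell, 0 rose and the median log2 fold change was -0.10. That is 16.7% called, against 4.2% of all tested genes. GABARAP, a ubiquitin-like protein of the autophagosome membrane, had 27, 52 and 79 counts in batch B and 120 and 136 in batch A, or 92.6 ± 21.6 CPM in batch B and 172 ± 3.80 CPM in batch A (SD, n = 3 and 2). Its log2 fold change was -0.81 (SE 0.16, edgeR adjusted p = 3.3e-05). GABARAPL2, a paralog, averaged 215 ± 17.9 CPM in batch B and 321 ± 13.9 CPM in batch A, with a log2 fold change of -0.55 (SE 0.12, edgeR adjusted p = 0.000418). For both genes no batch B library reached the level of a batch A library, as held for 17.8% of all tested genes. Both were called under every alternative that kept at least 2 libraries in each batch. GABARAPL1, named after its values were seen, had a log2 fold change of 0.70 (SE 0.42, edgeR adjusted p = 0.416).

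Among 6 tested iron chaperones and factors of IREB2 turnover, 1 rose, 1 fell and the median was -0.080. That is 33.3% called in a short list, against 4.2% of all tested genes. SKP1, a subunit of the ubiquitin ligase that with FBXL5 marks IREB2 for breakdown and serves many other targets, averaged 276 ± 30.7 CPM in batch B and 382 ± 13.7 CPM in batch A. SKP1 fell by 0.42 on the log2 scale (edgeR adjusted p = 0.00756), and did not pass when batch A library 2 was left out (edgeR adjusted p = 0.187). PCBP2, an RNA-binding protein that also hands iron to ferritin, had 541 ± 16.9 CPM in batch B and 435 ± 1.36 CPM in batch A and rose by 0.34 (edgeR adjusted p = 0.0469). It did not pass when low counts were kept in (edgeR adjusted p = 0.141), with DESeq2 (adjusted p = 0.0692), or when either batch A library or batch B library 1 or 2 was left out (edgeR adjusted p up to 0.326). FBXL5, the iron-sensing subunit, named after its values were seen, had 13, 31 and 21 counts in batch B and 33 and 34 in batch A.

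Of 18 tested genes of mitochondrial iron and iron-sulfur cluster assembly, 1 fell, 0 rose and the median was -0.17. That is 5.56% called, close to the 4.2% of all tested genes. All batch B libraries lay below all batch A libraries for 8 of the 18 (44.4%), against 17.8% of all tested genes. The gene that fell was FDX1, a ferredoxin that carries electrons in the matrix, at 78.1 ± 5.08 CPM in batch B and 127 ± 21.1 CPM in batch A (SD, n = 3 and 2). Its log2 fold change was -0.67 (SE 0.18, edgeR adjusted p = 0.00756), and it did not pass when batch A library 3 was left out (-0.50, edgeR adjusted p = 0.331), after thinning (edgeR adjusted p = 0.277) and with DESeq2 (adjusted p = 0.0835). Of 7 tested genes of haem transport and breakdown, 1 rose and 0 fell, and the median was 0.055. That is 14.3% called in a short list, against 4.2% of all tested genes. SLC48A1, a transporter that moves haem out of lysosomes, had 13, 12 and 14 counts in batch B and 7 and 5 in batch A, and rose 2.99-fold (edgeR adjusted p = 0.0446). That call was lost in 4 of the 5 fits that left out a library (edgeR adjusted p = 0.407 without batch A library 3), with limma-voom (adjusted p = 0.0944), without a filter (edgeR adjusted p = 0.0642) and after thinning (edgeR adjusted p = 0.204).

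**Figure D4:**
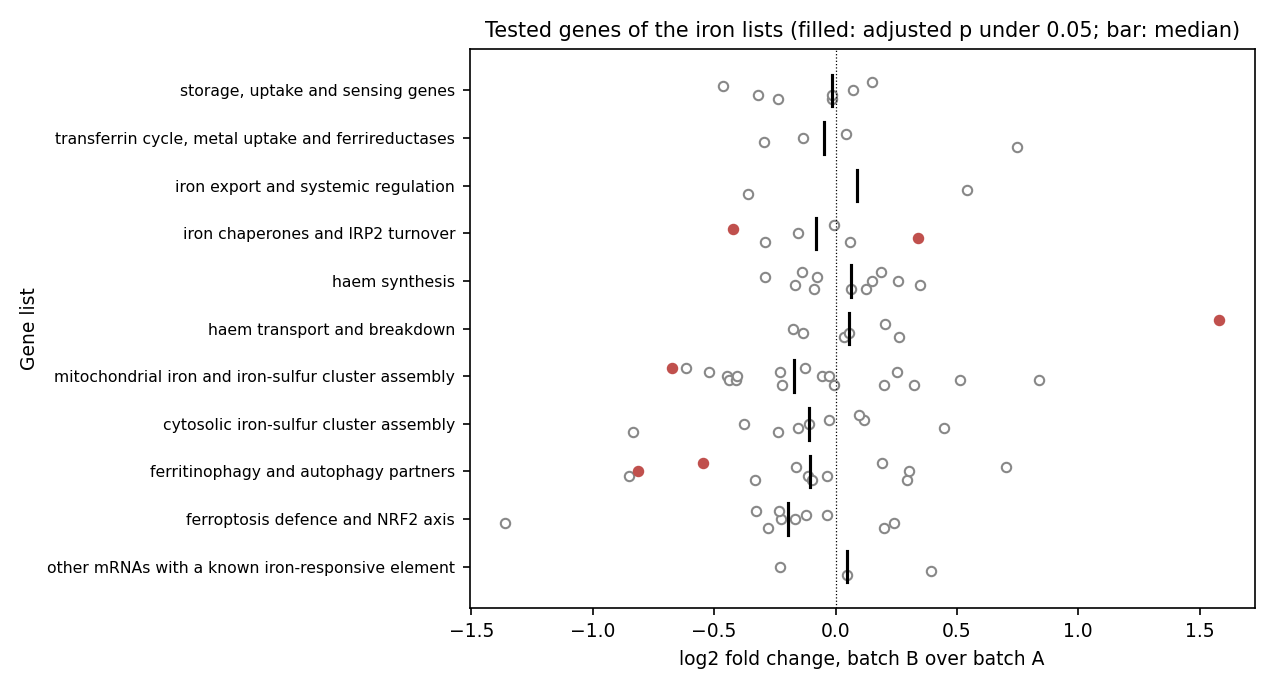
Fitted log2 fold change of batch B over batch A for each tested gene of the 8 genes and of the 10 other iron lists, with called genes filled in red and a black bar at the median of each list. The 6 called genes fall in 4 lists. The medians run from -0.20 in the ferroptosis list to 0.089 in the list of iron export and systemic regulation, which had 2 tested genes.

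The other 6 lists held 0 called genes by edgeR, against 4.2% of all tested genes. Of their 39 tested genes 5 had an unadjusted p under 0.05, against 16.4% of all tested genes. Abundant genes of each list are given by level. In the transferrin cycle and ferrireductase list (4 tested, median -0.046), SLC39A14, a zinc and iron importer, averaged 73.5 ± 15.7 CPM in batch B and 82.1 ± 3.36 CPM in batch A, and STEAP3, the endosomal ferrireductase, 39.4 ± 1.76 CPM in batch B and 49.2 ± 7.85 CPM in batch A. The list of iron export and systemic regulation had 2 tested genes, and its members CP, HEPH, HEPHL1 and HFE2 had no row. NEO1, a receptor of the hepcidin pathway, had 48.1 ± 3.54 CPM in batch B and 34.4 ± 15.2 CPM in batch A. BMP6, the ligand of that pathway, had 16.0 ± 2.81 and 21.7 ± 4.29 CPM in batches B and A.

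Haem synthesis had 11 tested genes and a median of 0.065. UROD, uroporphyrinogen decarboxylase, averaged 155 ± 15.9 CPM in batch B and 174 ± 13.1 CPM in batch A. In cytosolic iron-sulfur cluster assembly (9 tested, median -0.11), FAM96B averaged 261 ± 51.5 CPM in batch B and 292 ± 19.0 CPM in batch A, and the glutaredoxin GLRX3 215 ± 14.8 CPM in batch B and 225 ± 8.73 CPM in batch A.

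In the list of ferroptosis defence and NRF2 genes (10 tested, median -0.20), GPX4, the glutathione peroxidase that clears lipid peroxides, averaged 761 ± 36.7 CPM in batch B and 677 ± 38.7 CPM in batch A (log2 fold change 0.20, edgeR adjusted p = 0.357). SLC3A2, the partner subunit of the cystine importer, averaged 159 ± 11.6 CPM in batch B and 190 ± 16.0 CPM in batch A. The list of other mRNAs with a known iron-responsive element had 3 tested genes and a median of 0.047. Among them EPAS1, the hypoxia-inducible factor HIF-2 alpha, averaged 34.7 ± 8.79 CPM in batch B and 26.1 ± 1.87 CPM in batch A, and the batches overlap.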

How the data were processed

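The deposited table holds whole-number counts per gene for 5 libraries, as deposited by the authors and without normalization, in 24497 gene rows and 52 ERCC rows, and no column was left unused. The tools named per the submitters' processing notes are STAR 2.4.0a and cutadapt 1.2.1, and the builds hg19 and GRCh37. Left unstated are how reads became counts, whether the molecular identifiers were collapsed, which annotation served and whether strand was used (not given in the sources used here). Each column's batch was read from the prefix of its name, which the sample titles share.

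The members and lists were chosen with earlier results of these data known. ERCC rows were left out of library sizes and tests. The whole table was fitted with edgeR 4.0.16 in R 4.3.3 (TMM, filterByExpr by batch, quasi-likelihood test, batch as the sole factor), leaving 9215 genes, and p-values were adjusted over all of them. Standard errors were obtained from each log2 fold change and its F statistic. The prior degrees of freedom were infinite for all 9215 genes, so that genes of similar level share 1 spread, and a gene that varies more, such as TFRC, has a standard error that understates it. Ratios within libraries were compared by exact two-sided permutation of absolute differences, with 0.5 added to the counts of IREB2 and ACO1. BEST1, which overlaps FTH1 on the other strand in GENCODE 29, had 0 or 1 count a library. AC024937.1 and RNU7-18P overlap TFRC and AC027228.1 overlaps IREB2 on the other strand, and RNU6-87P overlaps SLC11A2 on the same strand. The part of these overlaps in the counts was not tested.

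Genes named are the 8 members, the 3 highest ferritin pseudogene rows, up to 3 called genes of each list or, with none, its 2 of highest CPM, and the 2 nearest genes to FTH1, FTL and TFRC; 2 genes under this rule are not reported here. On simulated data with no change the test called 0 of 9073 genes, and with 200 changed genes it found 65 of 66 changed 4-fold, with 5 false calls. Alternatives were DESeq2 size factors, library totals, the DESeq2 1.42.0 Wald test, limma-voom (limma 3.58.1), no filter, a mean count of at least 20, thinning in 1 seeded draw, sums with pseudogenes, and leaving out each library. Where that leaves 1 batch A library, it is assumed to vary like batch B.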

Additional observations from a re-analysis of the deposited data

How the results depend on the processing

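Over 13 alternatives, 0 of the 7 tested members were called in any fit that gave them an adjusted p, which was 12 for ACO1, 10 for SLC11A2 and all 13 for the other 5, and the smallest adjusted p of any of them was 0.188, for ACO1 without batch B library 2. Of 87 fold changes of these 7 genes under alternatives, 79 kept their sign and 8 did not, all 8 without a call. With a mean count of at least 20 the log2 fold change was 0.00011 for FTH1 and 0.00038 for FTL, and with pseudogene rows added 0.0073 for FTH1. With each library left out in turn it ran from -0.14 to 0.12 for FTH1, from -0.078 to 0.054 for FTL, from -0.062 to 0.28 for TFRC and from -0.63 to 0.17 for SLC11A2. ACO1, NCOA4 and IREB2 kept their sign in each of these fits.

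The difference in the log2 ratio of FTH1 to FTL was -0.022 after thinning and -0.0031 from pooled counts, and ran from -0.053 to 0.072 when a library was left out. That of TFRC to ferritin ran from -0.077 to 0.32 when a library was left out. The cause was not tested. The count of called genes in the other iron lists was 3 with the DESeq2 Wald test, against 6, and ran from 3 to 8 when a library was left out, 3 without batch A library 3. Over all tested genes it was 387, against 111 with DESeq2, 211 after thinning, 202 with batch B library 2 left out, and 138 and 152 with batch A library 2 or 3 left out. No paired analysis was possible because the batch A columns end in 2 and 3, where the labels number the batch A replicates 1 and 2, and so cannot be tied to a replicate.

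Depth limits SLC40A1 and SLC11A2 most. Intervals from counts cover counting error only.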
